A study of Homo sapiens with 12 samples.

Results

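The SLC25 family of mitochondrial carriers was followed in HCT116 cells under 2 stressors. Members were taken from the gene count tables as every row whose symbol is SLC25A followed by a number, which gave 48 genes of the 60708 rows. SLC25A6 has a second row, for its copy on the Y chromosome, so that the 48 genes fill 49 rows. HCT116 is a human colon cancer cell line, here of WT genotype. Cells were treated for 24 h with oligomycin A (OA), which blocks the ATP synthase of mitochondria, or with tunicamycin (TN), which blocks the N-glycosylation of proteins and disturbs folding in the endoplasmic reticulum. The sample labels give 5 µg/mL for both agents, while the study's methods text names a higher concentration of OA, so the OA dose is uncertain. Each agent had 3 biological replicates and its own 3 replicates treated with DMSO, the solvent, for the same time, which makes 12 RNA-seq libraries. All replicates came from this 1 cell line, so p-values measure the spread between these cultures.

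Most SLC25 carriers are proteins of the inner mitochondrial membrane, built of repeated units that each cross the membrane as a pair of helices. They exchange nucleotides, phosphate, carboxylates, amino acids, cofactors, and metals between the cytosol and the matrix. The ADP/ATP carriers bring ADP in and take ATP out, and the phosphate carrier supplies the phosphate for the ATP synthase, the enzyme that OA blocks. Most carriers are made in the cytosol and inserted through the TIM22 complex. The comparisons asked how the transcripts of this family differed from DMSO under a mitochondrial stressor and under a stressor of the endoplasmic reticulum.

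SLC25A4, SLC25A5, and SLC25A6, which encode ADP/ATP carriers, are similar in sequence, so the same stretch of their coding sequences is shown. Whether this similarity affected their counts was not tested. Each has 894 coding bases, of which 77.2% are identical between SLC25A4 and SLC25A5, 77.9% between SLC25A4 and SLC25A6, and 78.7% between SLC25A5 and SLC25A6. The longest identical runs in these pairs were 14, 20, and 29 bases. The stretch covers coding bases 52 to 111 and is given 5′ to 3′ in build hg38, from chr4:185143424-185143483 on the plus strand, chrX:119468567-119468626 on the plus strand, and chrX:1391899-1391958 on the minus strand. Capitals mark bases that differ from SLC25A5, 7 in SLC25A4 and 5 in SLC25A6.
SLC25A4: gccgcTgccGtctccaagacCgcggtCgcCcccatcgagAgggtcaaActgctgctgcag
SLC25A5: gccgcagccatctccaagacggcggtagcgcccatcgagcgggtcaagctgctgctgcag
SLC25A6: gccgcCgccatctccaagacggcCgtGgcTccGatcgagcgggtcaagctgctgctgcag

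SLC25A6 was listed at 0 in all 12 libraries. It lies in the pseudoautosomal region that the X and Y chromosomes share, and 99.3% of the 31-base stretches of its transcript occur at more than 1 place in the genome. In that region of X, 33 of 34 rows were at 0 in all libraries, among them 14 of 15 protein-coding genes, and the exception, ZBED1, had 1 count over the 12 libraries. The zeros of SLC25A6 therefore carry no level, and it was left out of every comparison. SLC25A31, an ADP/ATP carrier known from the testis, was also at 0 in all libraries, which allows up to 3 counts in each.

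Before the members' results, the libraries themselves were described. Library totals ranged from 9884124 to 24983573 counts, and the members held 0.188% to 0.377% of them. RN7SL1, the RNA of the signal recognition particle, took 6.02% to 17.9% of counts and was higher in every treated library than in its DMSO libraries, and its part in the results was not tested. Levels are therefore given as normalised CPM, counts scaled to library size (CPM) after TMM adjustment, which limits the weight of such abundant RNAs. The epithelial markers EPCAM, CDH1, KRT8, KRT18, and KRT19 and the colon factor CDX2 were present in all libraries, while VIL1 had at most 3 counts. The 6 of these markers that were tested did not move together. With OA 4 were above DMSO and 2 below, the lowest at -0.76 on the log2 scale. With TN 5 were above and 1 below, at -0.42. CDH1, the epithelial cadherin, rose in both sets, by 1.81 with OA and 1.69 with TN on the log2 scale (edgeR, adjusted p = 0.0271 and 0.00677). KRT18 also passed higher with TN in edgeR with the replicate number as a block. Markers of leukocytes summed to at most 0.736 CPM and those of endothelium to at most 1.45 CPM. The fibroblast markers summed to 1.14 to 2.18 CPM with DMSO and to 3.42 to 12.3 CPM with OA in the OA set, nearly all from COL1A1, while DCN had at most 1 count. The part of these markers in the results was not tested. In bulk RNA, fewer cells of a kind and less RNA per cell cannot be told apart.

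Libraries also differed by the base composition of transcripts. Across 40 members, the deviation of a library from its group mean correlated with the GC content of the longest transcript with Spearman's rho of 0.65 in DMSO replicate 2 and 0.51 in OA replicate 2, where AT-rich members tended to be low. The rho was 0.73 in the DMSO replicate 1 of TN and 0.77 in TN replicate 1. It was -0.71 in DMSO replicate 1 and -0.63 in OA replicate 1 of the OA set, and -0.70 in TN replicate 3. The members share library and depth in these values, which are given as a description. The most AT-rich member, SLC25A46, at 32.1% GC, spanned 1.98 log2 units among the 3 TN libraries, and SLC25A24, at 38.5% GC, spanned 2.55 log2 units among the 3 OA libraries. An offset fitted to remove this relation (GC offset) moved AT-rich members most with OA. Across the tested members, Spearman's rho of the log2 fold change with GC content was 0.24 with OA and 0.02 with TN. With the offset it was -0.18 and -0.21, so GC-rich members tended to be lower, and the part of this in their calls was not tested. The log2 fold change with OA went from -0.70 to -0.04 for SLC25A40, from -0.91 to -0.29 for SLC25A46, from -0.07 to 0.41 for SLC25A36, and from 0.25 to 0.71 for SLC25A26. None of these 4 passed edgeR's test with the offset.

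**Figure D1:**
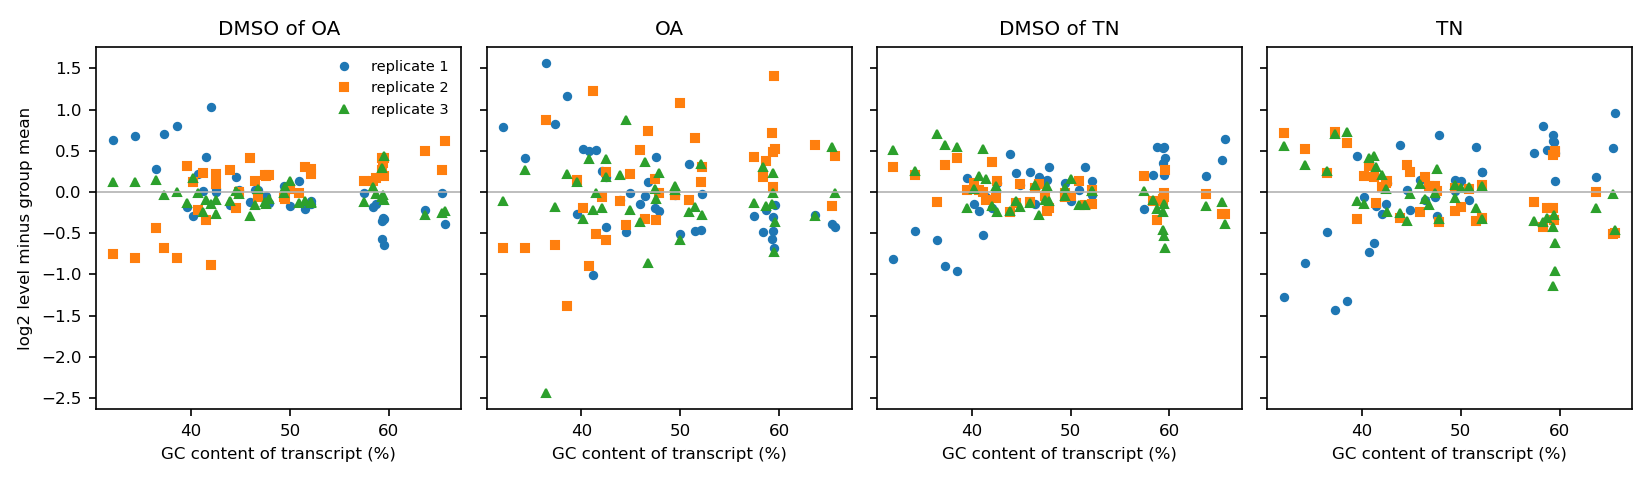
Deviation of each tested member from its group mean (log2 units, vertical axis) by the GC content of the longest transcript (percent, horizontal axis), with 1 panel per group and 1 symbol per replicate. In DMSO replicate 2 and OA replicate 2 of the OA set, and in replicate 1 of both TN groups, the median of the 8 members of lowest GC content lies below 0 (-0.55, -0.66, -0.53, and -0.79), though single members lie above.

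In the 6 DMSO libraries, the levels of the members spanned over 3 orders of magnitude per length of transcript. SLC25A6 has no level here and is not ranked. Among the other members, SLC25A5, the main ADP/ATP carrier of dividing cells, was highest at 381 ± 55.7 CPM per kb (SD, n = 6). SLC25A3, the phosphate carrier, followed at 224 ± 47.9. SLC25A39, a carrier needed for glutathione import, was at 123 ± 23.1, SLC25A1, the citrate carrier, at 94.0 ± 35.0, and SLC25A11, the oxoglutarate/malate carrier, at 49.2 ± 11.7. SLC25A39 and SLC25A1 did not differ beyond their spread. The order of the top pair depended on the length used, since per kb of coding sequence SLC25A3 was at 1236 CPM and SLC25A5 at 557 CPM. SLC25A4, the ADP/ATP carrier of heart and muscle, was far below SLC25A5 at 8.95 ± 0.783 CPM per kb of transcript. SLC25A3 and SLC25A5 together took 54.3% to 63.1% of all counts on the family in these libraries, which leave out whatever SLC25A6 would add.

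**Figure D2:**
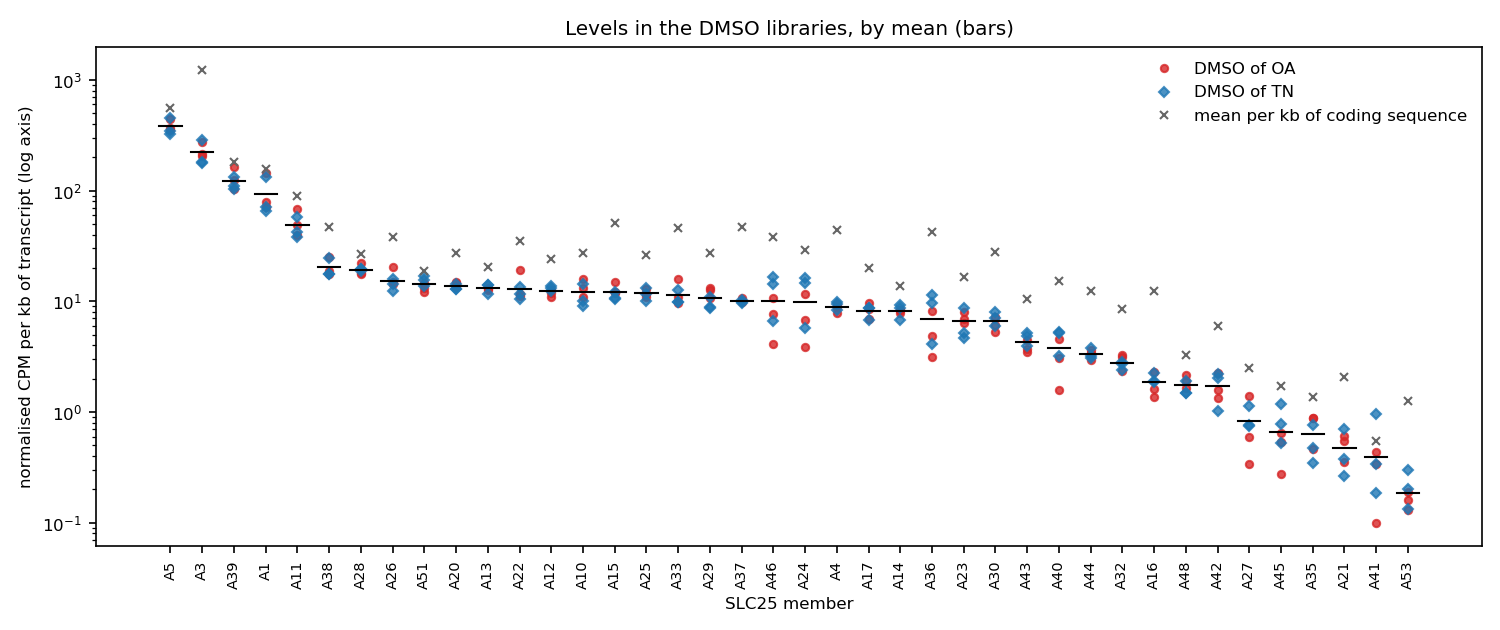
Level of members with counts in all 6 DMSO libraries, in normalised CPM per kb of its canonical transcript (log axis), with 1 point per library, the mean as a bar, and the mean per kb of coding sequence as a cross. SLC25A5 and SLC25A3 stand at the top, at 381 and 224 CPM per kb of transcript.

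A group of 7 members was not tested in either comparison. SLC25A2, SLC25A18, and SLC25A47, which are known from other tissues such as liver and brain, had at most 5 counts in any library. SLC25A52 also had at most 5 counts, and 51.0% of its 31-base stretches are repeated in the genome. SLC25A34 reached 14 counts, and SLC25A6 and SLC25A31 were at 0. SLC25A41, an ATP-Mg/phosphate carrier, passed the filter for OA but not for TN. This left 41 members tested for OA and 40 for TN.

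With OA, 1 of 41 tested members (2.44%) passed an adjusted p of 0.05 in the quasi-likelihood test of edgeR, with p-values adjusted over the whole table by the Benjamini-Hochberg method, while 4.48% of all 14681 tested genes did. That member was SLC25A48, which was lower, as were 1.72% of all genes, and no member was higher, against 2.76%. With TN, 2 of 40 tested members (5.00%) passed, against 6.99% of all 14432 tested genes. Of these, 1 was lower, as were 3.34% of all genes, and 1 was higher, SLC25A37, as were 3.65%. In TN, libraries with the same replicate number deviated together. With the number as a block, 9 of 40 members (22.5%) passed in edgeR, against 27.1% of all genes. SLC25A37 was higher, as were 11.8% of all genes, and 8 members were lower, as were 15.3%. SLC25A10, SLC25A40, SLC25A22, SLC25A28, SLC25A15, SLC25A3, and SLC25A5 were among the lower ones. With OA and the same block, 9 of 41 members (22%) passed, against 26.7% of all genes. Of these, 1 was higher (11.7% of all genes) and 8 lower (15.0%).

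More members lay below DMSO than above it. The log2 fold change was below 0 for 27 of 41 members with OA (65.9%), against 51.2% of all tested genes, and for 25 of 40 with TN (62.5%), against 51.9%. The median log2 fold change of the members was -0.30 with OA and -0.22 with TN, while that of all tested genes was -0.02 and -0.03. Every treated library lay below every DMSO library of its set for 10 of 41 members with OA (24.4%), against 15.5% of all genes, and for 10 of 40 with TN (25.0%), against 16.8%. The opposite, with every treated library above, held for 3 members with OA (7.32%; SLC25A37, SLC25A25, and SLC25A45), against 16.3% of all genes, and for 2 with TN (5.00%; SLC25A37 and SLC25A27), against 15.9%. These shares are descriptions, since no test over the list was made. With a GC offset, the distance of the members' median from that of all genes was -0.19 with OA and -0.10 with TN.

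The OA and TN comparisons share no library. Of the 40 members tested in both, 34 had a log2 fold change of the same sign (85.0%), 23 below 0 and 11 above, and 81.1% of all 14071 genes tested in both did. Across these members, Pearson's r between the log2 fold changes was 0.70 and Spearman's rho 0.66, compared with 0.80 and 0.78 across all genes. A group of 5 members, SLC25A10, SLC25A12, SLC25A15, and SLC25A48 among them, lay below DMSO without overlap in both sets, which is 12.5% of the 40 members and 10.2% of all genes. SLC25A37 lay above DMSO without overlap in both, which is 2.50% of the members and 10.0% of all genes.

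**Figure D3:**
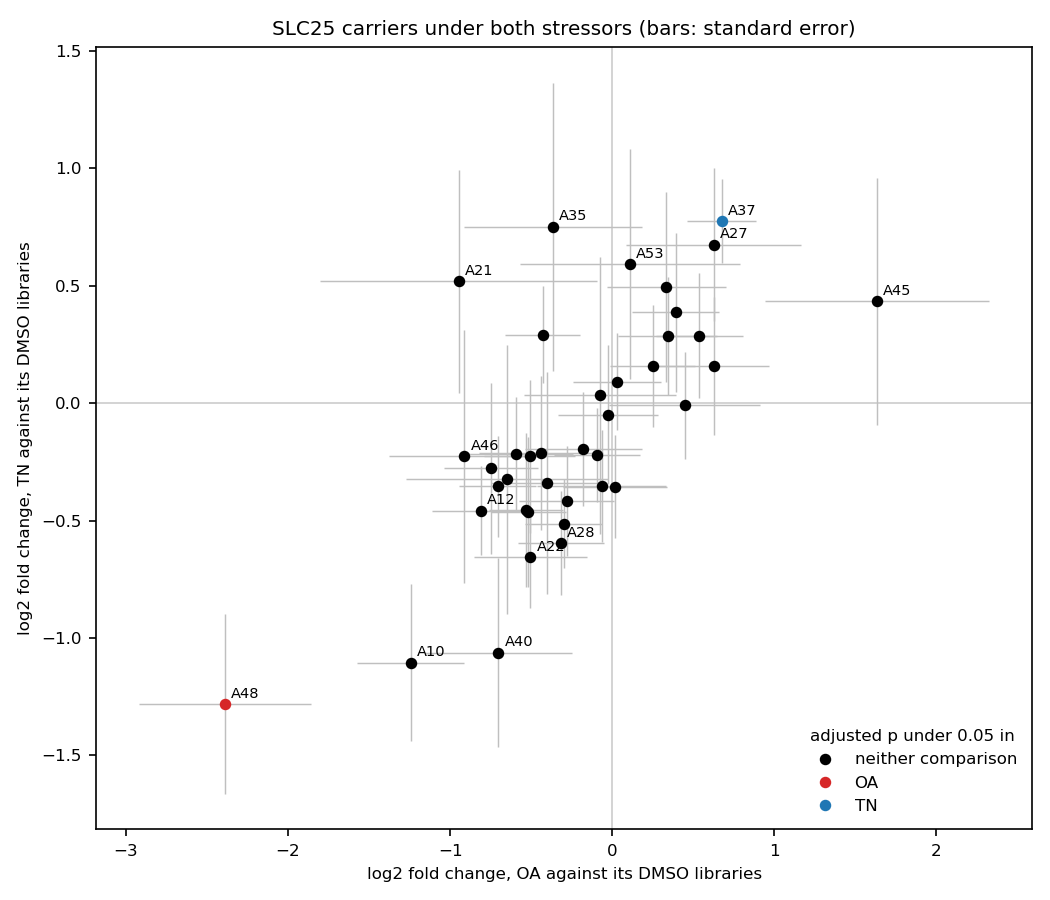
Log2 fold change against DMSO of members tested in both sets, with OA on the horizontal and TN on the vertical axis, and bars for the standard error. SLC25A48 lies farthest to the left at -2.39, and SLC25A37, the point called with TN, lies above 0 on both axes at 0.68 and 0.78.

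Among the ADP/ATP carriers, SLC25A5 was at 463, 585, and 479 CPM with DMSO and at 299, 346, and 411 CPM with OA. All OA libraries lay below all DMSO libraries, but the log2 fold change of -0.53 ± 0.23 (SE) did not pass edgeR's test (adjusted p = 0.213). With TN, SLC25A5 went from 592, 421, and 447 CPM to 540, 260, and 267 CPM, and TN replicate 1 lay within the DMSO range. The log2 fold change was -0.45 ± 0.33 (edgeR, adjusted p = 0.453), and with the replicate block the adjusted p was 0.0418. Without TN replicate 1 the log2 fold change was -0.85 and passed (edgeR, adjusted p = 0.0351), and without TN replicate 2 it was -0.28 and did not. SLC25A4 was at 38.8, 42.0, and 34.4 CPM in DMSO and at 34.2, 28.2, and 45.5 CPM in OA, and the groups overlapped. Its log2 fold change was -0.10 ± 0.26 with OA (edgeR, adjusted p = 0.853) and -0.22 ± 0.20 with TN (edgeR, adjusted p = 0.554), from 36.7, 42.0, and 43.2 CPM to 32.5, 39.5, and 32.6 CPM. Of the counts on the family's ADP/ATP carriers, SLC25A5 took 93.0% ± 0.599 (SD, n = 3) in DMSO and 90.7% ± 1.50 in OA, and 92.1% ± 1.79 in DMSO and 90.1% ± 3.85 in TN. These shares leave out whatever SLC25A6 would add. Of the 31-base stretches of SLC25A5, 37.6% are repeated in the genome, where it has several pseudogenes, and the 43 rows of SLC25 pseudogenes together held only 4 to 21 counts per library.

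SLC25A3, the phosphate carrier, was at 1233, 1655, and 1271 CPM in DMSO and at 904, 895, and 1109 CPM in OA. The groups did not overlap, and the log2 fold change of -0.52 ± 0.23 did not pass (edgeR, adjusted p = 0.227). Without DMSO replicate 2, SLC25A3 was at -0.32 on the log2 scale. With TN it went from 1729, 1066, and 1075 CPM to 1332, 719, and 753 CPM, where replicate 1 was the highest library of both groups. Here the log2 fold change was -0.46 ± 0.32 (edgeR, adjusted p = 0.428; with the replicate block, 0.0169). Without TN replicate 1 it was -0.77, and without DMSO replicate 1 it was -0.21. The other members of this group resemble uncoupling proteins. SLC25A14 was at -0.07 with OA and -0.35 with TN, SLC25A30 at -0.44 and -0.21, and SLC25A27 at 0.63 and 0.67 on the log2 scale, and none passed edgeR's test in either set.

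The ATP-Mg/phosphate carriers adjust the adenine nucleotide pool of the matrix in response to calcium. SLC25A25 was at 40.1, 44.5, and 37.4 CPM in DMSO and at 47.3, 77.5, and 52.4 CPM in OA, so that all OA libraries were above all DMSO libraries, and replicate 2 stood out. Its log2 fold change was 0.54 ± 0.27 (edgeR, adjusted p = 0.269), and 0.29 without OA replicate 2. With TN the groups overlapped, at 34.6, 45.7, and 40.3 CPM in DMSO and 66.0, 43.9, and 37.4 CPM in TN. The log2 fold change was 0.29 ± 0.27 (edgeR, adjusted p = 0.567), and 0.063 without TN replicate 1. SLC25A23 was at 0.39 on the log2 scale in both sets, and the AT-rich SLC25A24 was at -0.65 ± 0.62 with OA and -0.32 ± 0.57 with TN. Without 1 library, SLC25A23 ranged from 0.17 to 0.52 with OA and from 0.12 to 0.71 with TN. SLC25A24 then ranged from -1.38 to -0.087 with OA and from -0.62 to 0.15 with TN. None of these passed in edgeR's main test. With the replicate block SLC25A24 passed lower with OA in edgeR, as did 15.0% of all genes, but not with the GC offset and block.

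The carriers of di- and tricarboxylates move intermediates of the citric acid cycle. All 5 tested members were below DMSO with OA and 3 of 5 with TN. SLC25A10, the dicarboxylate carrier, which exchanges malate and succinate for phosphate, was lowest. It was at 25.4, 30.7, and 21.3 CPM in DMSO and at 8.02, 9.36, and 15.4 CPM in OA, with no overlap. This log2 fold change, -1.24 ± 0.33, missed the threshold in edgeR's main test (adjusted p = 0.0710). It passed in DESeq2 (adjusted p = 0.0151) and in edgeR with the GC offset (adjusted p = 0.0132) or the replicate block (adjusted p = 0.00881). With TN, SLC25A10 went from 27.9, 17.6, and 19.5 CPM to 14.0, 6.72, and 9.51 CPM, again with no overlap. Here the log2 fold change was -1.11 ± 0.34 (edgeR, adjusted p = 0.0935), and the adjusted p was 0.00404 with the replicate block and 0.00460 with the GC offset. None of the 31-base stretches of SLC25A10 is repeated in the genome, and a read-through gene on the same strand had 0 counts. SLC25A1 was at -0.40 ± 0.35 with OA and -0.34 ± 0.47 with TN, and lay above 0 without DMSO replicate 2 of the OA set (0.019) or DMSO replicate 1 of the TN set (0.034). SLC25A11 was at -0.51 ± 0.28 and -0.23 ± 0.32. SLC25A21, an oxodicarboxylate carrier, reached 45 counts in its highest library and was at -0.95 ± 0.85 with OA and 0.52 ± 0.47 with TN.

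The aspartate/glutamate carriers SLC25A12 and SLC25A13 belong to the malate-aspartate shuttle, which brings reducing equivalents into the matrix, and SLC25A22 is a glutamate carrier. All 3 were below DMSO in both sets. SLC25A13 was at 41.5, 41.0, and 40.0 CPM in DMSO and at 24.7, 29.0, and 21.4 CPM in OA, with close DMSO replicates and no overlap. Its log2 fold change was -0.70 ± 0.24 (edgeR, adjusted p = 0.126; with the replicate block, 0.0220). With TN, at 44.0, 44.1, and 36.5 CPM in DMSO and 27.6, 38.2, and 31.7 CPM in TN, the groups overlapped, and the log2 fold change was -0.35 ± 0.22 (edgeR, adjusted p = 0.366). SLC25A12 lay below DMSO without overlap in both sets, with means of 46.6 and 26.6 CPM for OA and 51.7 and 37.6 CPM for TN. Its adjusted p in edgeR was 0.157 with OA, 0.0281 with OA and the replicate block, and 0.192 with TN. SLC25A22 was at -0.50 ± 0.35 with OA and at -0.66 ± 0.22 with TN, where its adjusted p was 0.115 in edgeR, 0.0175 with the replicate block, and 0.0189 with the GC offset. With OA it was at -0.17 without DMSO replicate 2 and at -0.86 without OA replicate 2.

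SLC25A48, a carrier linked to the import of choline, fell with OA and is among the low members of the family. Its counts were 71, 72, and 65 with DMSO and 5, 4, and 11 with OA, which is 3.72, 2.84, and 3.30 CPM against 0.368, 0.398, and 1.14 CPM. In OA the counts reached 10 only in replicate 3, so SLC25A48 met the filter through its DMSO libraries, and its call depends on that. With a minimum of 10 counts in every library it was not tested. The groups were far apart, with the mean in DMSO 5.17-fold that in OA. The log2 fold change was -2.39 ± 0.53 (edgeR, adjusted p = 0.0467; DESeq2, 0.00455). The call lay close to the threshold. Leaving out any 1 of the 6 libraries ended it, with adjusted p in edgeR from 0.0530 to 0.206 and log2 fold changes from -3.09 to -2.10, and so did scaling to ACTB (-1.96; adjusted p = 0.0690). With TN, the counts of SLC25A48 were 61, 45, and 35 with DMSO and 11, 16, and 10 with TN, or 3.33, 2.56, and 2.59 CPM against 1.16, 1.47, and 0.857 CPM. These groups did not overlap either, and the change was -1.28 ± 0.38 (edgeR, adjusted p = 0.0892; with the replicate block, 0.0631). None of the stretches of SLC25A48 is repeated, and the overlapping genes, CXCL14 among them, had at most 1 count in any library.

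The other carriers of amino acids and acylcarnitines did not pass in edgeR's main test. SLC25A29, a carrier of basic amino acids, was at -0.75 ± 0.29 with OA and -0.28 ± 0.37 with TN. With the GC offset it passed with OA (-0.92; edgeR, adjusted p = 0.0160), and it also passed with OA with the replicate block. SLC25A15, the ornithine carrier of the urea cycle, was at -0.30 ± 0.24 and -0.51 ± 0.19, with an adjusted p of 0.151 with TN in edgeR, of 0.0431 with the replicate block, and of 0.0466 with the GC offset. SLC25A38, a glycine carrier needed for haem synthesis, was at 0.63 ± 0.34 with OA and 0.16 ± 0.29 with TN, and went to 0.21 without OA replicate 2 and to -0.13 without TN replicate 1. SLC25A45 rested on 12 to 73 counts and was at 1.63 ± 0.69 with OA (edgeR, adjusted p = 0.205) and 0.43 ± 0.53 with TN. OA replicate 2 stood at 7.27 CPM, against 1.62 and 1.55 CPM in the other OA libraries, and without it the log2 fold change was 0.51. SLC25A44, a carrier of branched-chain amino acids, was at 0.45 with OA and -0.01 with TN on the log2 scale. Here too OA replicate 2 stood apart, at 29.0 CPM against 9.57 and 9.11 CPM, and without it the log2 fold change with OA was -0.32.

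SLC25A20, the carnitine/acylcarnitine carrier that brings fatty acids in for oxidation, lay on opposite sides of DMSO in the 2 sets. It was at 25.8, 24.0, and 26.6 CPM in DMSO and at 18.5, 18.4, and 19.9 CPM in OA, with no overlap. In the TN set it was at 25.6, 22.8, and 22.9 CPM in DMSO and at 32.1, 24.7, and 30.6 CPM in TN, where 1 TN library lay within the DMSO range. Neither comparison passed, with log2 fold changes of -0.43 ± 0.23 for OA and 0.29 ± 0.21 for TN (edgeR, adjusted p = 0.306 and 0.444). The difference between the log2 fold changes, OA minus TN, was -0.78 ± 0.26 and had an unadjusted p of 0.0121 in an edgeR fit of all 12 libraries, which did not hold after adjustment (adjusted p = 1.00).

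The carriers of nucleotides and cofactors reported here spanned -0.59 to 0.33 with OA and -0.42 to 0.59 with TN on the log2 scale. None passed in edgeR's main test. SLC25A53 had wide errors, at 0.11 ± 0.68 with OA and 0.59 ± 0.49 with TN, and was at -0.91 with OA without OA replicate 2. SLC25A51, the NAD carrier, was at 0.03 ± 0.27 and 0.09 ± 0.21, although 64.1% of its stretches are repeated in the genome. SLC25A33 and SLC25A36, carriers of pyrimidine nucleotides, were at 0.02 and -0.07 with OA and at -0.36 and 0.03 with TN. SLC25A26, the carrier of S-adenosylmethionine, was at 0.25 and 0.16, and SLC25A32, a carrier of folate or flavin, at -0.59 and -0.22.

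SLC25A37, or mitoferrin-1, which imports iron for haem and iron-sulphur clusters, was the member that rose with TN. It was at 45.2, 46.4, and 48.3 CPM in DMSO and at 80.7, 82.7, and 76.1 CPM in TN. Both groups were tight, and the mean in TN was 1.71-fold that in DMSO, a log2 fold change of 0.78 ± 0.18 (edgeR, adjusted p = 0.0446; with the replicate block, 0.00688). The call was lost without any 1 library other than TN replicate 1, with edgeR's adjusted p from 0.112 to 0.224 and log2 fold changes from 0.75 to 0.79, and also with scaling to total counts (adjusted p = 0.0824) and with no filter on low counts (adjusted p = 0.138). With OA, SLC25A37 went from 50.1, 45.7, and 47.1 CPM to 76.7, 74.0, and 77.5 CPM, again with no overlap. The log2 fold change was 0.68 ± 0.21 (edgeR, adjusted p = 0.108). With the replicate block SLC25A37 passed higher with OA in edgeR, as did 11.7% of all genes. The difference between the stressors was -0.17 ± 0.24 (edgeR, unadjusted p = 0.491).

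SLC25A28, or mitoferrin-2, the iron carrier of non-erythroid cells, did not follow SLC25A37. It was at -0.32 ± 0.26 with OA (edgeR, adjusted p = 0.504) and at -0.59 ± 0.22 with TN (edgeR, adjusted p = 0.152; with the replicate block, 0.0400; with the GC offset, 0.0220). SLC25A39 and SLC25A40 are paralogs of which the former is needed for glutathione import. SLC25A39 was at -0.02 ± 0.31 with OA and -0.05 ± 0.30 with TN. SLC25A40, an AT-rich member, was at -0.70 ± 0.45 with OA and -1.06 ± 0.40 with TN (edgeR, adjusted p = 0.389 and 0.158; for TN with the replicate block, 0.00704). With the GC offset it was at -0.04 with OA (edgeR, adjusted p = 0.930) and at -0.85 with TN (edgeR, adjusted p = 0.0247). Its TN libraries, at 4.41, 11.8, and 10.3 CPM, lay below the DMSO libraries, at 12.9, 20.9, and 21.6 CPM, and replicate 1, the library low in AT-rich transcripts, was the lowest of each group.

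SLC25A46, a protein of the outer membrane that takes part in mitochondrial dynamics, showed how far the replicates could differ. It was at 51.3, 19.5, and 36.1 CPM in DMSO and at 30.0, 10.8, and 15.9 CPM in OA, with overlap. In both groups replicate 2 was the lowest. Its log2 fold change was -0.91 ± 0.47 (edgeR, adjusted p = 0.282) and became -0.29 with the GC offset (adjusted p = 0.295). With the replicate block it passed lower in edgeR, as did 15.0% of all genes, but not with the GC offset and block. With TN it was at 31.5, 68.3, and 79.0 CPM in DMSO and at 17.9, 71.0, and 63.7 CPM in TN, and replicate 1 was the lowest of each group. Its log2 fold change with TN was -0.23 ± 0.54 (edgeR, adjusted p = 0.840). SLC25A43 was at 0.34 ± 0.30 with OA and 0.29 ± 0.25 with TN.

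**Figure D4:**
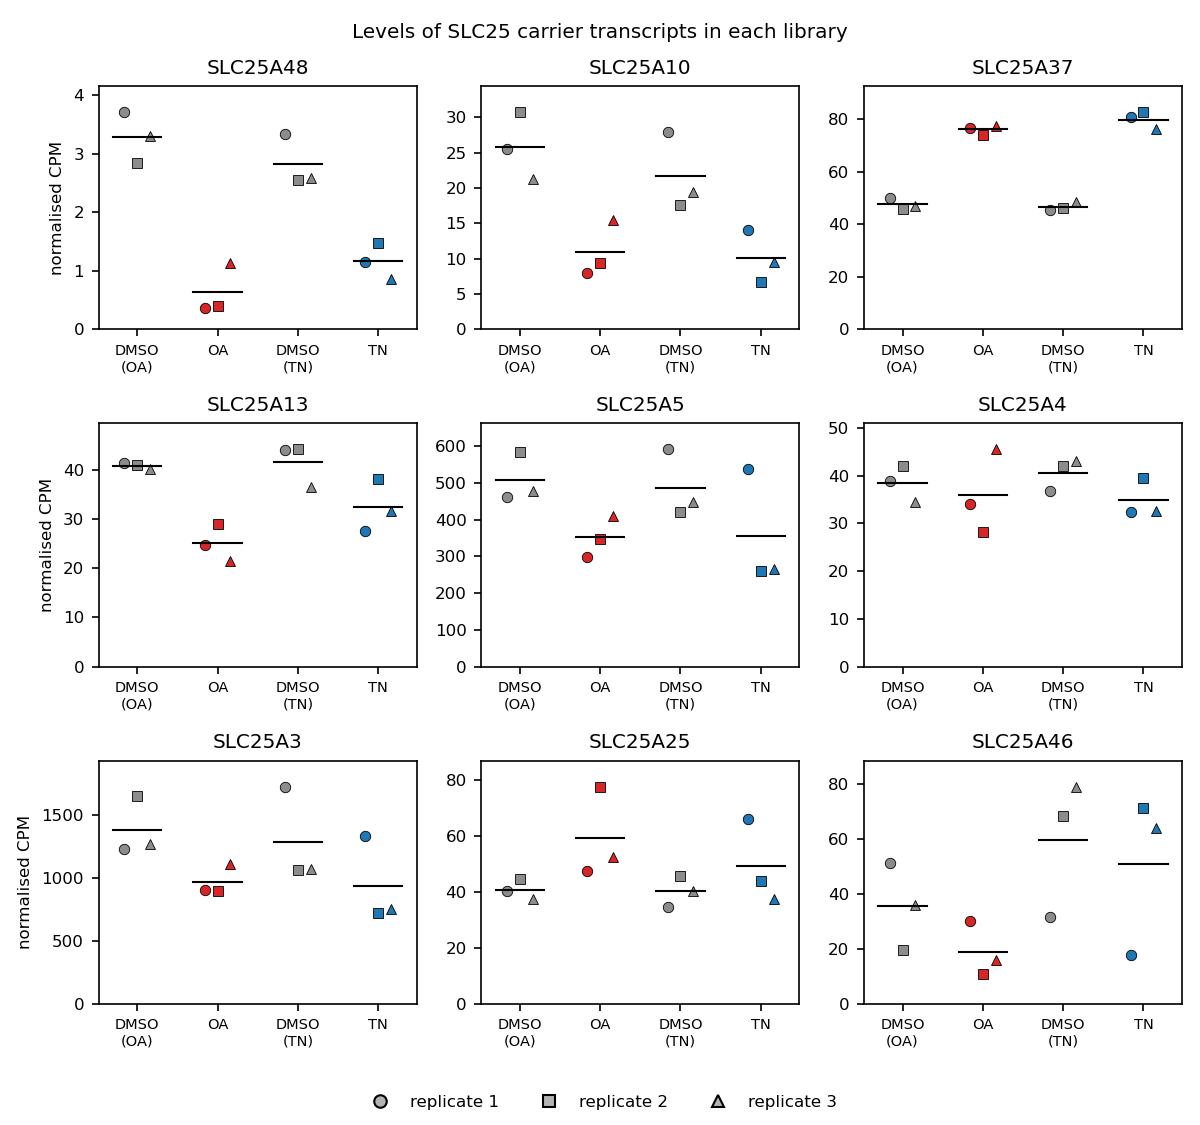
Normalised CPM (vertical axes from 0) of members with values per library, in the DMSO and treated libraries of each set, with 1 symbol per replicate number and a bar for the mean. SLC25A48 and SLC25A10 lie below DMSO and SLC25A37 above DMSO without overlap in both sets, while SLC25A46 varies most by replicate number.

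The promoter of SLC25A48, the member that fell with OA, is shown for reference. It is the 250 bases before a start site in RefSeq, build GRCh38.p14, plus strand, at chr5:135834413-135834662, and is written 5′ to 3′. RefSeq start sites gave 50 windows for 40 of the 48 members, and SLC25A48 has another window at chr5:135578922-135579171. Capitals mark the GC box, GGGCGG on either strand.
SLC25A48: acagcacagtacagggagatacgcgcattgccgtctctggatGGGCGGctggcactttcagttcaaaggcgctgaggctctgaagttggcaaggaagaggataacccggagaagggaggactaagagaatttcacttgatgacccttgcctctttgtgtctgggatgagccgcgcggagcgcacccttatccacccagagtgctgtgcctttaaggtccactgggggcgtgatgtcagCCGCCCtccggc

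The GC box was found in 66.0% of the members' windows and in 42.6% of the 35116 windows of all genes, with both strands searched in each case. CACGTG was found in 16% of the members' windows and 6.34% of all, CCAAT in 42% and 32%, and TGACGTCA in 6% and 1.65%. TGATGNAAN, the form of element bound by C/EBP and ATF factors, was in 2.00% of the members' windows, only in that of SLC25A11, and in 3.13% of all. The ER stress element, CCAAT followed after 9 bases by CCACG, which holds the CCAAT box, was in none of the 50 windows and in 0.074% of all. These matches describe letters in these windows only.

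No member passed the test of a difference between the stressors. The difference between the log2 fold changes passed an adjusted p of 0.05 for 0 of 41 members (0%) and 0 of 15429 genes in edgeR, and for 0 members in DESeq2. At an unadjusted p of 0.05, 1 member passed, SLC25A20 (2.44%), against 2.26% of all genes. A p that misses the threshold does not show that OA and TN acted alike on a carrier. For SLC25A48 the difference was -1.17 ± 0.62 and for SLC25A10 it was -0.19 ± 0.46 on the log2 scale.

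Other transport proteins of mitochondria were counted alongside. The family members with other symbols are the uncoupling proteins and MTCH1 and MTCH2. Of these, 0 of 4 tested passed with OA and 0 of 3 with TN in edgeR's main test, against 4.48% and 6.99% of all genes. MTCH2 passed lower with TN with the replicate block (edgeR, adjusted p = 0.0474), as did 15.3% of all genes. Among 22 further transporters of both membranes, 14 of 21 tested were below DMSO with OA and 15 of 20 with TN, against 51.2% and 51.9% of all genes. With the replicate block, 9 of the 20 passed in edgeR with TN, SMDT1 higher (adjusted p = 0.0211), as were 11.8% of all genes, and 8 lower, as were 15.3%. The lower ones were MPC2 (0.0487), ABCB10 (0.00217), LETM1 (0.00405), MCUB, VDAC1 (0.00568), SFXN1 (0.00188), VDAC3 (0.00104), and SFXN2 (0.0116). With OA and the block, 9 of the 21 passed in edgeR, all lower, as were 15.0% of all genes. They were the same 8 genes and MICU2. MCUB, a subunit that dampens the calcium uniporter, fell with OA from 28.8 ± 2.12 to 13.5 ± 1.95 CPM (SD, n = 3), with a change of -1.09 ± 0.25 on the log2 scale (edgeR, adjusted p = 0.0495), and was at -0.80 ± 0.21 with TN (edgeR, adjusted p = 0.0615; with the replicate block, 0.0105). VDAC3, a channel of the outer membrane, fell with TN from 199 ± 28.3 to 91.2 ± 13.6 CPM, with -1.13 ± 0.21 (edgeR, adjusted p = 0.0245), and was at -1.01 ± 0.24 with OA (edgeR, adjusted p = 0.0563). Of 10 genes of the TIM22 import route, 7 were below DMSO with OA and 8 with TN, against 51.2% and 51.9% of all genes. TIMM13 and TIMM8A passed lower with TN with the replicate block (edgeR, adjusted p = 0.0114 and 0.00686). That is 2 of 10, against 15.3% of all genes. With OA and the block, TOMM70, TIMM13, and TIMM8A passed lower (edgeR, adjusted p = 0.0433, 0.0250, and 0.0179). That is 3 of 10, against 15.0% of all genes. TIMM8A, a chaperone of the intermembrane space, fell with TN from 21.3 ± 2.04 to 9.49 ± 1.94 CPM, with -1.17 ± 0.25 (edgeR, adjusted p = 0.0345), and was at -0.79 ± 0.26 with OA (edgeR, adjusted p = 0.121). The calls of VDAC3 and TIMM8A were lost without any 1 library other than TN replicate 1, with adjusted p in edgeR of 0.0600 to 0.102 and 0.0689 to 0.143, and that of MCUB without any 1 library other than OA replicate 1 (0.0567 to 0.213). The call of TIMM8A was also lost with ACTB scaling (0.119), and that of MCUB with ACTB scaling (0.228), total counts scaling (0.0585), the GC offset (0.126), no filter (0.0506), and the size factors of DESeq2 (0.0529).

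**Figure D5:**
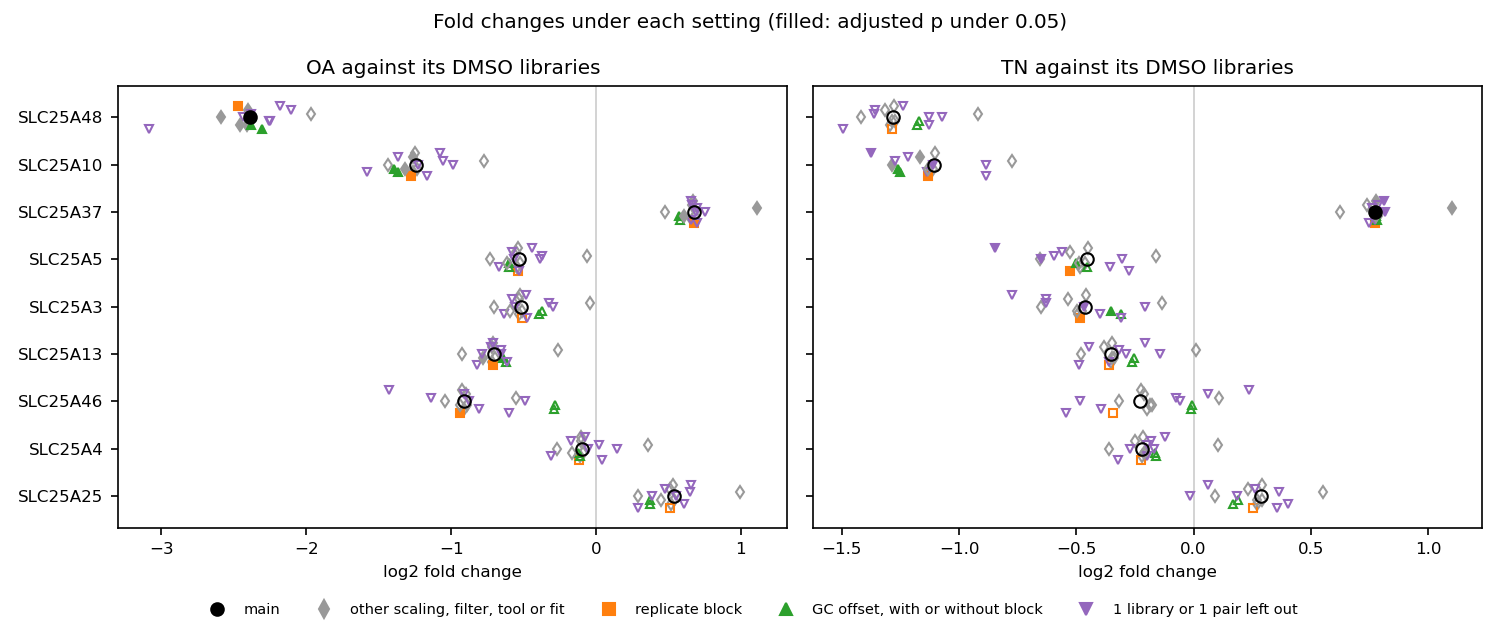
Log2 fold change of members with values per library under every setting, with 1 row per member, filled symbols for an adjusted p under 0.05, and circles for the main edgeR test. SLC25A48 and SLC25A10 stay below 0 and SLC25A37 above 0 under every setting shown, while SLC25A4, SLC25A13, SLC25A25, and SLC25A46 cross 0 in at least 1 set.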

How the data were processed

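Total RNA of the cells was sequenced with a stranded kit. STAR alignment to hg38 was done by the authors, who deposited raw counts per gene, with no normalization. The strand column used is not given in the sources used here. The deposited result tables of the authors also hold log2 fold changes, their errors, a test statistic or score, p-values, and mean normalized levels from DESeq2, which were not used. All count columns were assigned to libraries by the labels.

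Genes passing filterByExpr were normalized by TMM and tested with edgeR 4.0.16 (R 4.3.3), quasi-likelihood test, two-sided, separately for OA and TN, with p-values adjusted over the tested genes of the table (Benjamini-Hochberg). The SE was computed as the log2 fold change over the root of its F value. Alternatives were DESeq2 1.42.0, its size factors, scaling to total counts or ACTB, no filter, a minimum of 10 counts per library, a replicate block, GC offsets (loess span 0.3, genes with a mean of at least 20 counts), 1 fit of all 12 libraries, and fits without each library or without 1 pair. The GC check used log2 CPM (prior count 2). Scripts were tested on simulated data. Every 2 libraries of a group differed by more than sampling noise (chi-square per gene of at least 5.92). Same-numbered libraries correlated in their deviations from the group means with r of 0.64, 0.41, and 0.43 for TN, so the shared number in the labels was taken to pair them, although TN replicate 2 correlated with DMSO replicate 3 at 0.44 and TN replicate 3 with DMSO replicate 2 at 0.38, which does not tell numbers 2 and 3 apart. The r was 0.62, 0.54, and 0.09 for OA, which was not taken as paired, although each OA library correlated best with its own number. With the block, 9 of 41 members passed with OA and 9 of 40 with TN in edgeR. The choice to take TN alone as paired is therefore no contrast between the stressors.

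Values per library are given for SLC25A4, SLC25A5, SLC25A6, and SLC25A31, for members that passed, and for the member of lowest p in each role group; SLC25A20, SLC25A12, and SLC25A40 were added after their values were seen. The values of 1 member are not reported here, and it stays in the counts over the family. Members and lists were chosen with earlier results of these data known. Gene models are from GENCODE v44, and promoters from RefSeq. Counting intervals and the floor of 3 counts cover counting error only.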

Additional observations from a re-analysis of the deposited data

Results flagged for a closer look

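SLC25A20 lay on opposite sides of DMSO in the 2 sets, with all 3 OA libraries below and all 3 TN libraries above the mean log2 level of their DMSO libraries. The difference in log2 fold change, OA minus TN, was -0.78 ± 0.26 and did not pass edgeR's test after adjustment (adjusted p = 1.00). SLC25A21 showed the same split, with a difference of -1.53 ± 1.05 (edgeR, adjusted p = 1.00), on at most 45 counts in a library and 0 counts in OA replicate 3.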

How the results depend on the processing

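Of the tested members, 25 of 41 with OA and 24 of 40 with TN kept the sign of their log2 fold change under every setting run. ACTB scaling alone reversed 11 members with OA and 10 with TN. The same count was not made over all genes, so it is not a result about the carriers. Scaling moved all genes together, with the median of all tested genes at 0.42 with OA and 0.30 with TN under ACTB scaling and at -0.23 and -0.18 under total counts, so changes are best read against it. Under ACTB scaling the members' median was 0.17 with OA and 0.11 with TN, 0.25 and 0.19 below that of all genes. With OA it was -0.52 under total counts and -0.17 with the GC offset, and -0.41 to -0.16 without 1 library. With TN it was -0.35 under total counts, -0.087 with the GC offset, -0.093 with the GC offset and block, and -0.21 to -0.12 without 1 library, and its distance from all genes was -0.10 without TN replicate 2, against -0.19 with all libraries. The cause of these moves was not tested beyond the shift of all genes.

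With OA, members passing were 0 higher and 1 lower in the main test. Higher calls, with the share of all genes called higher in brackets, numbered 1 with ACTB scaling (9.13%), 1 with the replicate block (11.7%), 2 with the GC offset and block (12.9%), and 1 in the fit of all 12 libraries (5.79%). Lower calls, with the share of all genes called lower in brackets, numbered 3 with DESeq2 (4.31%), 0 with ACTB scaling (0.572%), 2 with no filter (2.40%), 0 with at least 10 counts in every library (2.13%), where SLC25A48 is not tested, 8 with the replicate block (15.0%), 4 with the GC offset (7.57%), 9 with the GC offset and block (12.8%), and 4 in the fit of all 12 libraries (5.11%). They numbered 0 without any 1 library (0% to 2.88%) and 0 without both libraries numbered 2 (2.26%). With the replicate block, 26.7% of all genes passed either way, and SLC25A48 (adjusted p = 0.00931), SLC25A10 (0.00881), SLC25A12 (0.0281), SLC25A13 (0.0220), SLC25A24 (0.0280), SLC25A29 (0.0208), SLC25A46 (0.00792), and SLC25A37 (0.0212) were among the 9 members (edgeR).

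With TN, 1 passed higher and 1 lower in the main test. Higher calls, with the same share, numbered 0 with total counts scaling (3.67%), 0 with no filter (2.63%), 0 to 1 without 1 library (0.531% to 7.26%), and 3 without both libraries numbered 1 (20.3%). Lower calls numbered 2 with DESeq2 (5.31%), 4 with total counts (6.06%), 2 with no filter (3.22%), 8 with the replicate block (15.3%), 6 with the GC offset (10.5%), 11 with the GC offset and block (19.0%), 0 to 3 without 1 library (0.484% to 8.54%), and 13 without both libraries numbered 1 (22.6%). That pair was left out after seeing the data, as was the pair numbered 2 of OA. The TN block changed no other member's call than those given in the text.

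SLC25A4 reversed with OA under ACTB scaling (0.36) and without both libraries numbered 2 (0.14), and ranged from -0.31 to 0.043 without 1 library, above 0 without DMSO or OA replicate 2, and with TN under ACTB scaling (0.10). With TN, SLC25A13 reversed under ACTB scaling (0.012), SLC25A25 without both libraries numbered 1 (-0.016), and SLC25A46 under ACTB scaling (0.11), and it ranged from -0.55 to 0.24 without 1 library, above 0 without DMSO replicate 3 or TN replicate 1. The cause was not tested. Depth limits SLC25A48, SLC25A21, SLC25A27, SLC25A35, SLC25A41, SLC25A45, and SLC25A53, which have under 100 counts in every library.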
